A study of Mus musculus with 18 samples.

Results

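Chil3 encodes Ym1, a chitinase-like lectin secreted by myeloid cells, and is followed here with 5 other genes used as markers of alternatively activated or lectin-bearing myeloid cells in the mouse. The other 5 are Chil1, Retnla, Mgl2, Clec10a and Cd209a. They were taken by symbol from a table of 26538 genes, and all 6 were found there. Chil3 was chosen by its FPKM with and without anti-PD-1, which moved in opposite directions after cryo-thermal therapy and after cryoablation. Those comparisons are therefore given as values, with no test, for every one of the 6 genes. Of the 6, 5 had a mean of at least 0.5 FPKM over all samples, the level asked for in a test. Cd209a, with a mean of 0.244 FPKM, did not.

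RNA was sequenced from 18 mouse tumours that had received no ablation themselves, 3 in each of 6 groups. Another tumour of the animal had been treated by cryo-thermal therapy with an antibody against PD-1 (anti-PD-1), cryo-thermal therapy alone, radiofrequency ablation plus anti-PD-1, radiofrequency ablation alone, cryoablation plus anti-PD-1, or cryoablation alone. Cryoablation freezes tissue, radiofrequency ablation heats it, and cryo-thermal therapy joins freezing and heating. PD-1 is an inhibitory receptor of T cells. For one group the series' design text joins cryo-thermal therapy and anti-PD-1 by "or", while the labels of its samples call the treatment combined, and the sample labels were followed. Every animal had an ablation, and a group without one was not analysed here. The tumour line, the mouse strain, sex and age, the doses and the days are not stated in the labels. Nothing in the labels tells if the tumours of a group are from different animals, so p-values reflect only the spread among these samples, part of which may be technical. Levels are FPKM, fragment counts scaled to the length of the gene and to the size of the library. FPKM sums ran from 408042 to 442383 per tumour, and sequencing depth relative to the middle of the 18, estimated from the steps between low values, from 0.983 to 1.019. Markers of skin and hair follicle stood apart in 3 tumours, replicates 1 and 2 of cryoablation plus anti-PD-1 and replicate 1 of cryo-thermal plus anti-PD-1. The mean log2 level of that list was 3.27 to 3.94 in these 3 and 0.524 to 2.50 in the others.

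Alternative activation is the state that macrophages enter when interleukin 4 or interleukin 13 binds a receptor containing Il4ra and switches on the transcription factor STAT6. Chil3 and Retnla are classical products of that state in the mouse. Mgl2 and Clec10a are galactose-binding lectins of macrophages and dendritic cells. Chil3 is not confined to it, since mouse neutrophil precursors and inflammatory monocytes also make the RNA. Chil1, a chitinase-like protein also named BRP-39, is made by macrophages, neutrophils and epithelial cells, and Cd209a, a mouse relative of DC-SIGN, marks a subset of dendritic cells.

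STAT proteins bind a palindrome whose arms are TTC and GAA, and STAT6 favours a spacing of 4 bases between them. The 250 bases before the starts in RefSeq's promoter table (GRCm38.p6) were searched on both strands for TTCNNNNGAA and for the shorter TTCNNNGAA, which do not overlap at any match below. The promoters of Chil3 (chr3:106167565-106167814, minus strand), its nearest relative Chil4 (chr3:106219480-106219729, minus strand), Retnla (chr16:48842359-48842608, plus strand) and the neighbouring resistin-like gene Retnlg (chr16:48872358-48872607, plus strand) are shown because each family shares a motif although its members have unlike levels or patterns below. Capitals mark the match.
Chil3: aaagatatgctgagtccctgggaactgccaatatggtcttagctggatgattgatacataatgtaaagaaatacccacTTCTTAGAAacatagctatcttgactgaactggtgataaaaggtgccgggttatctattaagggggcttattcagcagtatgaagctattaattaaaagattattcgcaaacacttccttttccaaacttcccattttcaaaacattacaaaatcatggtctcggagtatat
Chil4: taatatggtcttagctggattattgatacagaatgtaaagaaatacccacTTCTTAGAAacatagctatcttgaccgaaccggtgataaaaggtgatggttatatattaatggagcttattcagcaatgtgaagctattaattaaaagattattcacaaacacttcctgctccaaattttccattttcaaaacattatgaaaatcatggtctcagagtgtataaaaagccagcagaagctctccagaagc
Retnla: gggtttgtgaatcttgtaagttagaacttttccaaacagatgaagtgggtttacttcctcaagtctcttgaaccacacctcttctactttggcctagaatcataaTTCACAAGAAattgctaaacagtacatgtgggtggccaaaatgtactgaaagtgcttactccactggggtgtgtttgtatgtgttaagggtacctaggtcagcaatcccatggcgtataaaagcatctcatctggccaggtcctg
Retnlg: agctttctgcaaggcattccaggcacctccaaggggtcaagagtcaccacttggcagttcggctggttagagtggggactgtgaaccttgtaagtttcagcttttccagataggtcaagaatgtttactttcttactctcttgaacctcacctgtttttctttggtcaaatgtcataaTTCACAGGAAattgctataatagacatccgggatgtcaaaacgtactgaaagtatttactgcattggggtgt
Chil3 and Chil4 held TTCTTAGAA, at -172 to -164 and at -200 to -192 from the start. Retnla held TTCACAAGAA at -145 to -136, and Retnlg TTCACAGGAA at -72 to -63. The annotated starts fall at different points of the sequence that each pair of genes shares. Distances from the start are therefore not compared within a pair. Of 32851 mouse promoters of that length, 5.85% held TTCNNNNGAA and 7.02% held TTCNNNGAA. Neither was found in the 250 bases before Chil1 or Cd209a. Clec10a had no entry among these promoters and was not searched. For Mgl2 the table's start lies inside the gene as annotated, so its window is not described. A match describes the letters in this window and is not a measured binding site.

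Chil3 (NCBI gene 12655, chr3:106147554-106167564) was the most abundant of the 6, with a mean of 39.4 FPKM over all tumours, and its highest value was 42 times its lowest. After cryo-thermal plus anti-PD-1 it measured 43.2, 108.3 and 144.1 FPKM in replicates 1, 2 and 3, against 3.43, 4.05 and 13.4 FPKM after cryo-thermal therapy alone. All 3 tumours with the antibody lay above all 3 without it. After cryoablation plus anti-PD-1 it measured 6.35, 6.74 and 5.24 FPKM, against 129.4, 19.2 and 66.0 FPKM after cryoablation alone, so here the tumours with the antibody lay below those without it. After radiofrequency ablation plus anti-PD-1 it measured 27.2, 11.6 and 25.7 FPKM, against 15.6, 65.3 and 14.6 FPKM after radiofrequency ablation alone, and these values overlapped.

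The log2 fold changes of Chil3 with anti-PD-1, on the log2(FPKM + 1) scale, were 3.70 after cryo-thermal therapy (98.5 ± 51.2 against 6.96 ± 5.58 FPKM; SD, n = 3 each) and -2.99 after cryoablation (6.11 ± 0.780 against 71.5 ± 55.3 FPKM). These 2 values chose the gene and are a description. Leaving out 1 tumour at a time gave 3.34 to 4.23 for the change after cryo-thermal therapy and -3.72 to -2.38 for the change after cryoablation. Without the 3 tumours rich in skin markers they were 4.20 and -3.17, the second with 1 tumour left after cryoablation plus anti-PD-1. Among 12587 genes, 19.8% had values that did not overlap between the groups after cryo-thermal therapy and 31.6% after cryoablation.

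Radiofrequency ablation is the one ablation whose response to anti-PD-1 played no part in choosing Chil3. There the log2 fold change was -0.28 (SE 0.69, limma adjusted p = 0.900; 21.5 ± 8.63 against 31.8 ± 29.0 FPKM), less than the spread between replicates. Of all genes, 14.8% did not overlap between these groups. Radiofrequency replicate 2, at 65.3 FPKM, lay above all the others of both groups, and without it the change was 0.40. It was 0.09 without replicate 2 of radiofrequency plus anti-PD-1.

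**Figure D1:**
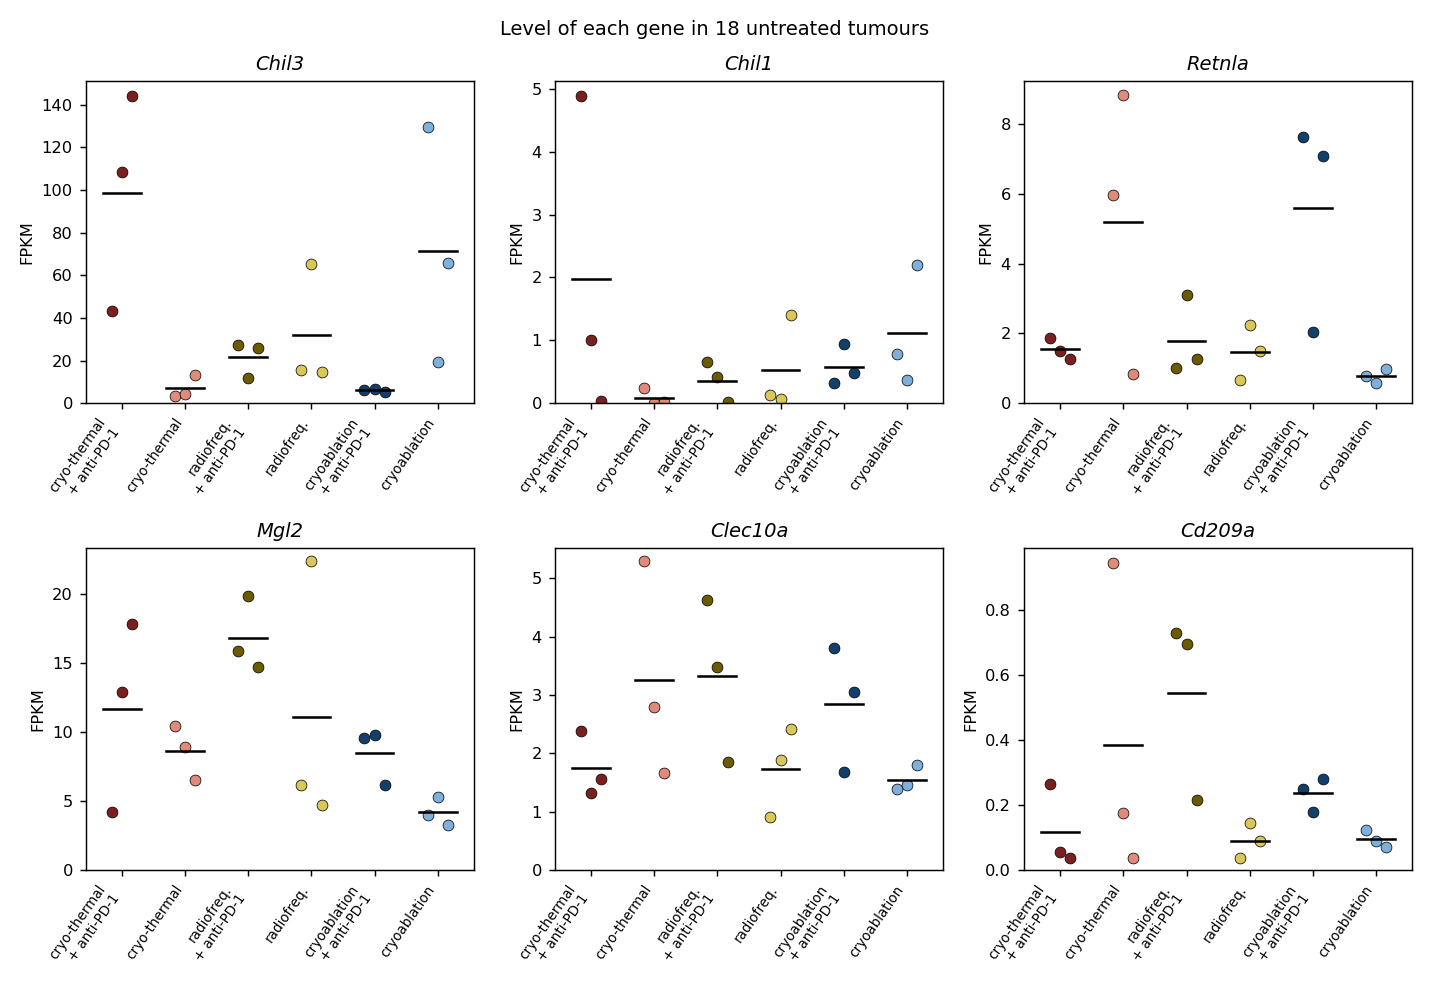
FPKM of Chil3, Chil1, Retnla, Mgl2, Clec10a and Cd209a (linear y axes from 0) in the 6 groups, with a point per tumour and a bar at the mean of 3. Chil3 reached 43.2 to 144.1 FPKM after cryo-thermal plus anti-PD-1 and 3.43 to 13.4 FPKM after cryo-thermal therapy alone, and 5.24 to 6.74 FPKM after cryoablation plus anti-PD-1 and 19.2 to 129.4 FPKM after cryoablation alone.

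In order of its mean, Chil3 was highest after cryo-thermal plus anti-PD-1, then after cryoablation, radiofrequency ablation, radiofrequency plus anti-PD-1, cryo-thermal therapy and cryoablation plus anti-PD-1. Every neighbouring pair in that order overlapped. Without the antibody, its values after cryo-thermal therapy lay below all those after cryoablation (log2 fold change -3.03) and all those after radiofrequency ablation (-1.91, or -1.23 without radiofrequency replicate 2). With the antibody, cryo-thermal therapy lay above cryoablation (3.65) and above radiofrequency ablation (2.07), and radiofrequency ablation above cryoablation (1.58). Among all 12587 genes, 35.5% did not overlap between cryo-thermal therapy and cryoablation, 15.7% between cryo-thermal therapy and radiofrequency ablation, and 22.8% between radiofrequency ablation and cryoablation, where Chil3 overlapped. Its change there was -1.12, and it was -1.86 without cryoablation replicate 2 and -0.51 without cryoablation replicate 1. With the antibody the shares in the same order of pairs were 25.9%, 22.9% and 9.4%. These differences share tumours with those that chose the gene, so they too are a description. Without the 3 tumours rich in skin markers, cryo-thermal plus anti-PD-1 exceeded cryoablation plus anti-PD-1 by 4.34.

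Chil4, which encodes the related lectin Ym2, stayed at 0 to 0.0846 FPKM and was listed at 0 in 11 of the 18 tumours. The longest Chil3 and Chil4 transcripts are identical at 94.4% of 1538 aligned bases, and their promoters at 91.0% of 221. Of the 75-base stretches of Chil3 transcripts, 13.0% also occur in Chil4 or the predicted gene Gm6522, so reads from those stretches could be divided between the genes. The read length and the treatment of such reads are not given in the sources used here.

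Chil1 (NCBI gene 12654, chr1:134182156-134190031) was low and uneven. It measured 4.88, 1.01 and 0.0303 FPKM after cryo-thermal plus anti-PD-1, against 0.242, 0 and 0.0150 FPKM after cryo-thermal therapy alone. It measured 0.318, 0.940 and 0.476 FPKM after cryoablation plus anti-PD-1, against 0.778, 0.365 and 2.19 FPKM after cryoablation alone. Within cryo-thermal plus anti-PD-1 its replicates lay far apart, and the tumour richest in Chil1, replicate 1, is one of the 3 rich in skin markers and has the lowest Chil3 of its group. That tumour also has the highest summed FPKM of 15 neutrophil markers among all 18, at 430.0. Across the 18 tumours Chil1 had a Spearman rho of 0.664 with neutrophil markers and 0.552 with skin markers, as a description. After radiofrequency plus anti-PD-1 it measured 0.648, 0.413 and 0.0151 FPKM, against 0.134, 0.0606 and 1.41 FPKM after radiofrequency ablation alone (log2 fold change -0.10, SE 0.49, limma adjusted p = 0.955).

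Retnla (NCBI gene 57262, chr16:48842609-48844461) encodes RELM alpha, a secreted resistin-like protein, and was highest where Chil3 was lowest. It measured 7.62, 2.05 and 7.10 FPKM after cryoablation plus anti-PD-1, against 0.772, 0.588 and 0.976 FPKM after cryoablation alone, with no overlap. Values of 31.6% of the 12587 genes did not overlap between these groups. It measured 1.87, 1.48 and 1.27 FPKM after cryo-thermal plus anti-PD-1, against 5.97, 8.83 and 0.824 FPKM after cryo-thermal therapy alone. Replicate 3 of cryo-thermal therapy lay below all 3 tumours with the antibody and its other 2 above them. The log2 fold changes with anti-PD-1 were 1.75 after cryoablation and -0.98 after cryo-thermal therapy, against -2.99 and 3.70 for Chil3 in the same tumours, all given as description. The Retnla change after cryo-thermal therapy was -1.71 without replicate 3 of the group lacking the antibody, and -0.49 without its replicate 2. After radiofrequency plus anti-PD-1 Retnla measured 1.02, 3.10 and 1.27 FPKM, against 0.671, 2.25 and 1.5 FPKM after radiofrequency ablation alone (log2 fold change 0.16, SE 0.51, limma adjusted p = 0.930). FPKM is scaled to gene length, so the 2 genes can be compared within a tumour, but only roughly. Reads from the 13.0% of 75-base stretches that Chil3 shares with other genes could be divided between them. Retnla was above Chil3 in 4 of the 18 tumours, replicates 1 and 2 of cryo-thermal therapy and replicates 1 and 3 of cryoablation plus anti-PD-1.

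**Figure D2:**
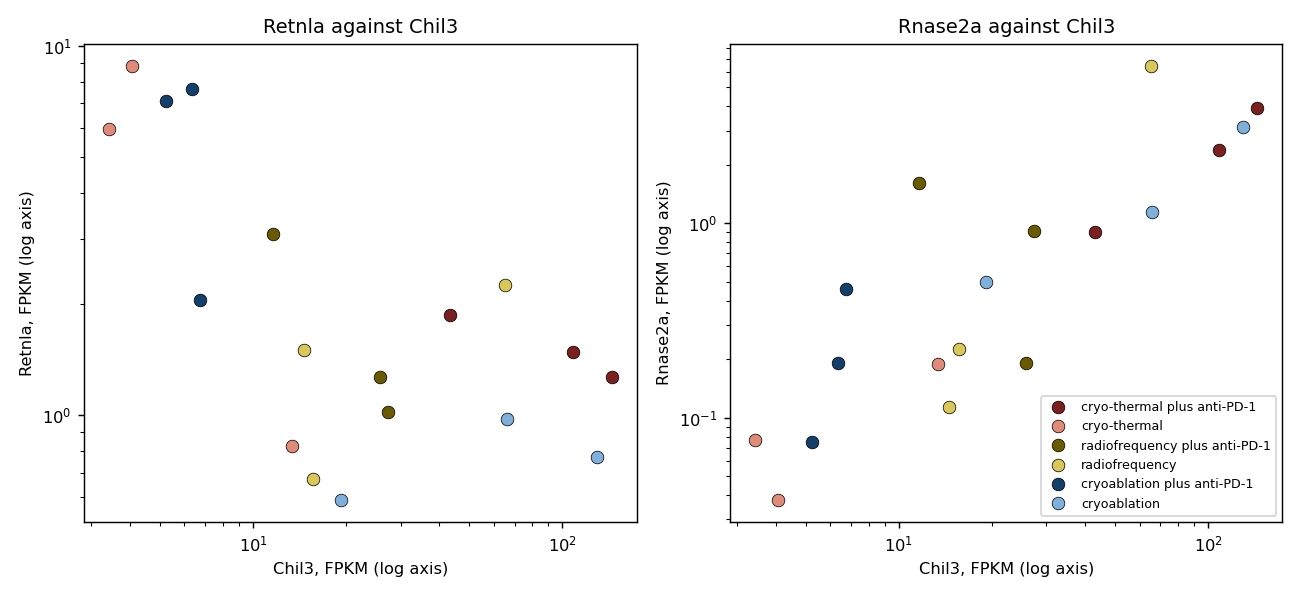
FPKM of Retnla (left) and Rnase2a (right) against FPKM of Chil3, all on log axes, with a point per tumour coloured by group. Retnla was highest in tumours with Chil3 under 10 FPKM (Spearman rho -0.598), and Rnase2a, an eosinophil-associated ribonuclease gene, ran with Chil3 (rho 0.827), both over 18 tumours and as a description.

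Retnla came nearest to a call among the tested differences, though it passed in none of them. After cryo-thermal therapy it averaged 5.21 ± 4.06 FPKM, against 0.779 ± 0.194 FPKM after cryoablation (SD, n = 3 each; log2 fold change 1.5, SE 0.51, limma adjusted p = 0.0602). Cryo-thermal replicate 3, at 0.824 FPKM, lay inside the range of cryoablation. Without it the change was 2.22 with a limma adjusted p of 0.00290, without cryo-thermal replicate 2 it was 1.01, and over 28 alternatives the adjusted p ran from 2.48e-04 to 0.246. Without replicate 2 of cryoablation plus anti-PD-1, which enters the shared spread only, the adjusted p was 0.0431. Against radiofrequency ablation, cryo-thermal therapy had a change of 1.07 (SE 0.51, limma adjusted p = 0.374), which became 1.79 with an adjusted p of 0.0381 without cryo-thermal replicate 3, and 0.58 when replicate 2 of that group was left out instead. Over 28 alternatives that adjusted p ran from 0.0141 to 0.797. With the antibody in both groups, Retnla was lower after cryo-thermal therapy than after cryoablation in all 3 tumours, 1.54 ± 0.305 against 5.59 ± 3.08 FPKM (log2 fold change -1.24, SE 0.51, limma adjusted p = 0.183). Of all genes, 25.9% did not overlap between these groups.

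Mgl2 (NCBI gene 216864, chr11:70130125-70137542) encodes CD301b. It measured 15.9, 19.8 and 14.7 FPKM after radiofrequency plus anti-PD-1, against 6.14, 22.4 and 4.73 FPKM after radiofrequency ablation alone. These values overlapped, and Mgl2 did not pass (log2 fold change 0.84, SE 0.47, limma adjusted p = 0.498). It measured 9.53, 9.73 and 6.13 FPKM after cryoablation plus anti-PD-1, against 3.99, 5.30 and 3.24 FPKM after cryoablation alone, with no overlap. The log2 fold change of Mgl2 there was 0.87, as a description. Without the 3 tumours rich in skin markers Mgl2 changed by 0.48, with 1 tumour left after cryoablation plus anti-PD-1. It measured 4.20, 12.9 and 17.8 FPKM after cryo-thermal plus anti-PD-1, against 10.5, 8.92 and 6.54 FPKM after cryo-thermal therapy alone. Cryoablation alone was the lowest group, and all 3 of its values lay below those of cryo-thermal therapy alone (log2 fold change 0.89, SE 0.47, limma adjusted p = 0.206). Radiofrequency replicate 2, the highest Chil3 of its group, was also the highest Mgl2 of all 18. Radiofrequency plus anti-PD-1 lay above cryoablation plus anti-PD-1 in every tumour (16.8 ± 2.68 against 8.46 ± 2.02 FPKM; log2 fold change 0.93, SE 0.47, limma adjusted p = 0.840). Values of 31.6% of the 12587 genes did not overlap when anti-PD-1 was added to cryoablation. The shares were 35.5% between cryo-thermal therapy and cryoablation, and 9.4% between radiofrequency plus anti-PD-1 and cryoablation plus anti-PD-1.

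Clec10a (NCBI gene 17312, chr11:70166623-70170836) encodes CD301a and lies beside Mgl2. It measured 4.63, 3.48 and 1.85 FPKM after radiofrequency plus anti-PD-1, against 0.899, 1.89 and 2.42 FPKM after radiofrequency ablation alone (log2 fold change 0.65, SE 0.32, limma adjusted p = 0.440). It measured 3.81, 1.68 and 3.04 FPKM after cryoablation plus anti-PD-1, against 1.39, 1.45 and 1.79 FPKM after cryoablation alone. It measured 2.39, 1.32 and 1.55 FPKM after cryo-thermal plus anti-PD-1, against 5.30, 2.80 and 1.66 FPKM after cryo-thermal therapy alone. All 3 pairs overlapped. Of the 75-base stretches of Mgl2 transcripts 6.56%, and of those of Clec10a 4.44%, occur in the other gene. The ratio of Mgl2 to Clec10a ran from 1.76 to 11.9 over the tumours, so their levels were not in a fixed proportion.

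Cd209a (NCBI gene 170786, chr8:3743395-3748984) was near the detection limit, and its values correspond to an estimated 2 to 53 fragments. It measured 0.727, 0.694 and 0.214 FPKM after radiofrequency plus anti-PD-1, against 0.0350, 0.143 and 0.0881 FPKM after radiofrequency ablation alone, with no overlap. It measured 0.249, 0.178 and 0.280 FPKM after cryoablation plus anti-PD-1, against 0.123, 0.0894 and 0.0712 FPKM after cryoablation alone, again with no overlap. Among the 12587 genes past the filter, which leave out Cd209a, 14.8% did not overlap in the radiofrequency pair and 31.6% in the cryoablation pair. Cd209a measured 0.263, 0.0540 and 0.0357 FPKM after cryo-thermal plus anti-PD-1, against 0.945, 0.175 and 0.0353 FPKM after cryo-thermal therapy alone. When all genes of the table were tested, its limma adjusted p for radiofrequency plus anti-PD-1 against radiofrequency ablation was 0.50.

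Over the 7 comparisons that allowed a test, 29 differences of these genes were tested with limma and 0 passed an adjusted p of 0.05. At an unadjusted p under 0.05 there were 3, all of Retnla. The share of all genes called differed widely between comparisons. Of 12587 genes, 15% passed between cryo-thermal therapy and cryoablation, 4.06% between the same therapies with the antibody, 1.31% between cryo-thermal and radiofrequency ablation with the antibody, and 0.0477% when anti-PD-1 was added to radiofrequency ablation. It was 0.00794% for cryo-thermal therapy against radiofrequency ablation and also for radiofrequency ablation against cryoablation. For radiofrequency against cryoablation, both with the antibody, 0% passed and 736 genes had an unadjusted p under 0.05. A count of 0 among 4 or 5 genes lies near the background in each comparison, and SEs of 0.32 to 0.69 set the size of change that could pass. For 1 gene in groups of 3, no exact permutation test could go below p = 0.1.

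**Figure D3:**
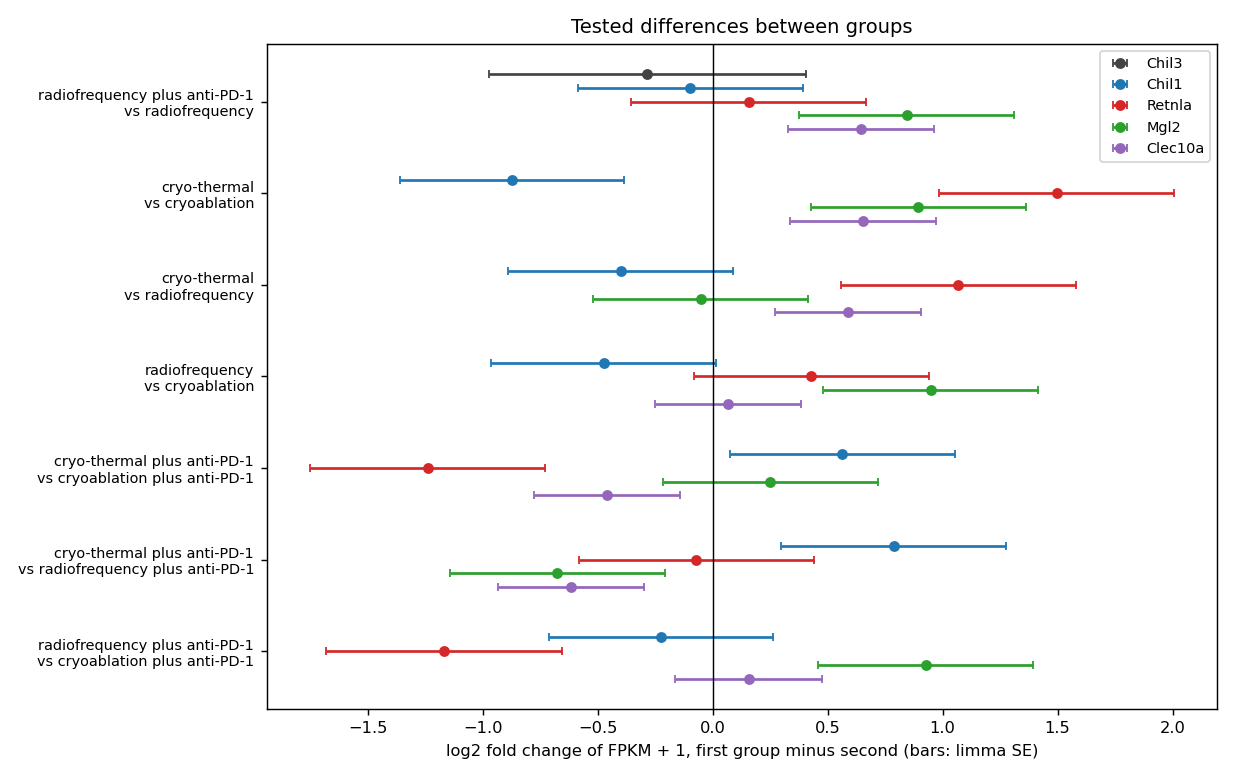
Log2 fold change of FPKM + 1 (x axis; points, with bars of 1 limma SE) for Chil3, Chil1, Retnla, Mgl2 and Clec10a in the 7 tested comparisons down the page, each as the first named group minus the second. Retnla lies at 1.5 for cryo-thermal against cryoablation and at -1.24 for the same pair with anti-PD-1, and 0 of the 29 differences passed.

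The 6 genes did not vary as one set. Across the 18 tumours Clec10a and Cd209a ran together (Spearman rho 0.837, Pearson r 0.867 on log2 values, 0.735 without the 2 tumours farthest from the median of Clec10a, and 0.823 for deviations from group means). Retnla ran with Clec10a (rho 0.707, r 0.661). Chil3 ran against Retnla (rho -0.598, r -0.654, and -0.291 for deviations from group means) and had a rho of -0.018 with Mgl2. These values describe samples that share 6 groups and 1 table, and no p is given because Chil3 was chosen for its pattern.

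Among 11825 other genes, the 10 whose levels ranked most like Chil3 over the 18 tumours were Mphosph9, Cep85, Rnase2a, Ptgs1, Dennd2b, Azin2, Tert, Mdm1, Slc35e3 and Taf2, with Spearman rho of 0.754 to 0.841. Most of these covered a narrow range. Mphosph9, a centriolar protein gene, lay between 2.39 and 3.44 FPKM in all tumours. Rnase2a, a ribonuclease gene of the eosinophil-associated family also named Ear11, is the exception, with 0.0376 to 6.47 FPKM. It measured 0.902, 2.40 and 3.91 FPKM after cryo-thermal plus anti-PD-1, against 0.0766, 0.0376 and 0.190 FPKM after cryo-thermal therapy alone. It measured 0.191, 0.460 and 0.0751 FPKM after cryoablation plus anti-PD-1, against 3.14, 0.499 and 1.15 FPKM after cryoablation alone. Since it was ranked on these same tumours, its likeness to Chil3 in these pairs follows from the choice. Of these 10 genes, 6 were also among the top 10 by Pearson r, 1 without the 3 tumours highest in Chil3, and 0 when deviations from group means were ranked. The nearest genes to the others were Stfa2 for Chil1 (rho 0.919), Slc13a3 for Retnla (0.860), Ccl17 for Mgl2 (0.870) and Lpl for Clec10a (0.876). Next came Cd24a and Il36g for Chil1, Tspan7 and Rnaset2a for Retnla, Polg and Rad9a for Mgl2, and Cd302 and Cma1 for Clec10a.

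Neutrophil markers are set beside Chil3 as measured, with no test. Of 15 listed markers 8 passed the filter on low values, and of these 7 had a positive change with anti-PD-1 after cryo-thermal therapy (median 0.40, all genes 0.00) and 7 a negative one after cryoablation (median -1.0, all genes -0.01). When anti-PD-1 was added to radiofrequency ablation, where Chil3 changed by -0.28, all 8 had a negative change (median -0.36, all genes 0.01). The summed FPKM of the 15 ran from 51.0 to 430.0 after cryo-thermal plus anti-PD-1 and from 22.3 to 88.1 after cryo-thermal therapy alone. It ran from 54.4 to 105.1 after cryoablation plus anti-PD-1 and from 153.6 to 339.5 after cryoablation alone. S100a9, a calprotectin subunit abundant in neutrophils, measured 230.2, 71.9 and 13.7 FPKM after cryo-thermal plus anti-PD-1, against 20.2, 2.13 and 8.61 FPKM after cryo-thermal therapy alone. It measured 9.44, 47.0 and 23.6 FPKM after cryoablation plus anti-PD-1, against 67.2, 112.2 and 162.8 FPKM after cryoablation alone. Within groups the orders parted. After cryo-thermal plus anti-PD-1, replicate 3 had the highest Chil3 of all tumours and the lowest neutrophil sum of its group. The defining neutrophil gene Ly6g was at 0 there. Ly6g was at 0 in 8 tumours and above 0 in 10, at most 0.254 FPKM, so that 0 does not set replicate 3 apart. Replicate 1 had the lowest Chil3 and the highest neutrophil sum of the group. The ratio of Chil3 to that sum was 2.83 in replicate 3 and 0.10 in replicate 1.

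Erythroid markers, which stand for red blood cells in the sample, had changes of the same sign as Chil3. Of 6 listed, 5 passed the filter, and all 5 had a positive change with anti-PD-1 after cryo-thermal therapy (median 1.22) and a negative one after cryoablation (median -3.28). When anti-PD-1 was added to radiofrequency ablation, where Chil3 changed by -0.28, all 5 had a negative change (median -1.675). Their summed FPKM was 81.0 to 316.1 after cryo-thermal plus anti-PD-1 and 23.6 to 210.5 after cryo-thermal therapy alone, and 53.0 to 104.3 after cryoablation plus anti-PD-1 and 557.8 to 772.5 after cryoablation alone. Between cryo-thermal therapy and cryoablation without the antibody, where Retnla came nearest to a call, all 5 fell (median -3.32, limma). Across the 18 tumours their mean log2 level had a Spearman rho of -0.744 with Mgl2 (Pearson r -0.787, and -0.724 without the 2 tumours farthest from its median), -0.725 with Retnla (r -0.665 and -0.696) and 0.476 with Chil3 (r 0.415 and 0.452), as a description. Within groups the orders of erythroid markers and Chil3 did not always match. After cryo-thermal plus anti-PD-1 the mean log2 level was 4.415, 3.478 and 2.928 in replicates 1, 2 and 3, the reverse of Chil3. Radiofrequency replicate 2 had the lowest erythroid level of its group, 2.061, and the highest Chil3. After radiofrequency plus anti-PD-1, at 2.987, 2.217 and 2.866, the order was that of Chil3. The part of erythroid cells or blood in the values of the 6 genes was not tested.

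Of 11 classical monocyte markers other than Chil3, 4 had a positive and 7 a negative change with anti-PD-1 after cryo-thermal therapy (median -0.05), and 6 a positive and 5 a negative one after cryoablation (median 0.06). Their summed FPKM, of which Fn1 makes up the larger part, was 340.3 to 378.2 after cryo-thermal plus anti-PD-1 and 325.4 to 497.5 after cryo-thermal therapy alone, and 364.0 to 598.4 after cryoablation plus anti-PD-1 and 560.5 to 691.5 after cryoablation alone. Without Fn1 the sum was 82.5 to 165.7 after cryo-thermal plus anti-PD-1 and 102.7 to 137.8 after cryo-thermal therapy alone. It was 103.5 to 134.2 after cryoablation plus anti-PD-1 and 115.2 to 146.2 after cryoablation alone. Of 14 resident macrophage markers, 14 had a negative change after cryo-thermal therapy (median -0.37) and 11 after cryoablation (median -0.25). When anti-PD-1 was added to radiofrequency ablation, 8 of the 11 monocyte markers had a positive change (median 0.24), as had 8 of the 14 macrophage markers (median 0.02). Eosinophil markers were at or near 0 in most tumours, with Epx, eosinophil peroxidase, at 0 in 15 of 18 and at most 0.0395 FPKM, and Prg2, a granule protein gene, at up to 1.10 FPKM. In bulk tumours a change in the number of cells of a type and a change in RNA per cell cannot be told apart, and the part of neutrophils, monocytes or macrophages in the Chil3 values was not tested.

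**Figure D4:**
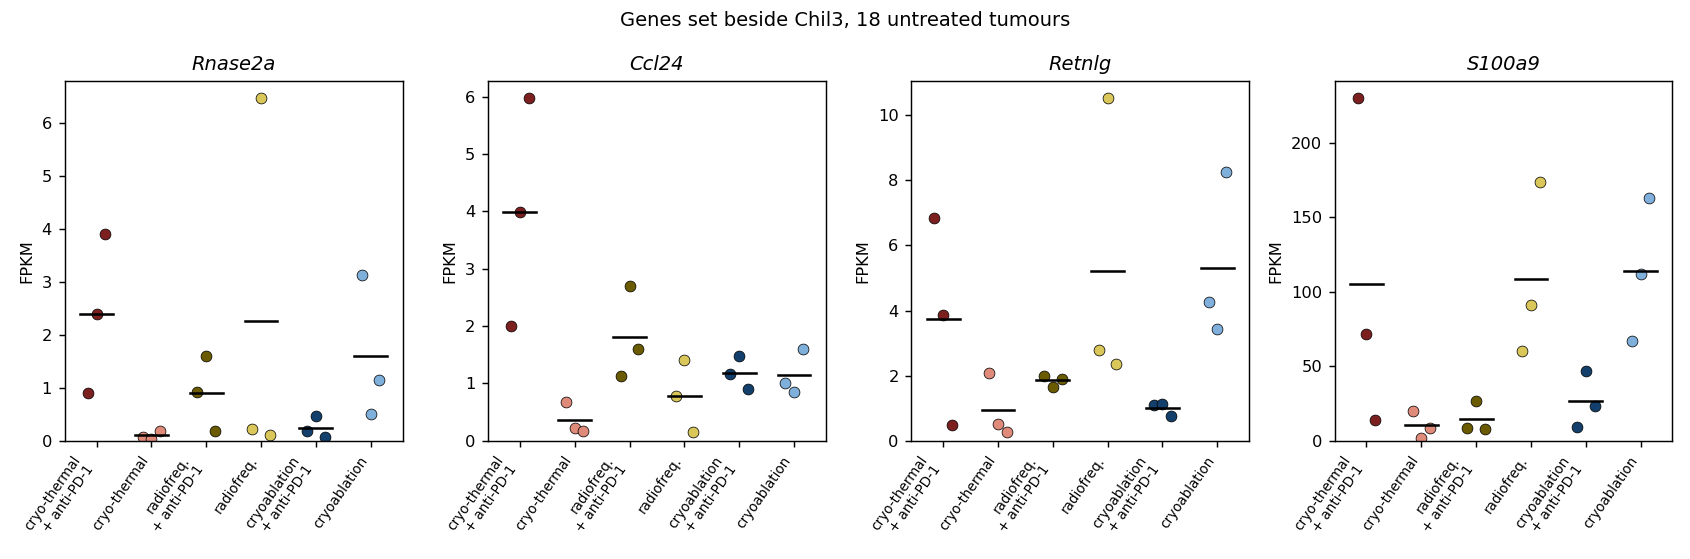
FPKM of Rnase2a, Ccl24, Retnlg and S100a9 (linear y axes from 0) in the 6 groups, with a point per tumour and a bar at the mean of 3; the 4 genes were chosen after their values were seen. S100a9 lay at 13.7 to 230.2 FPKM after cryo-thermal plus anti-PD-1 and at 2.13 to 20.2 FPKM after cryo-thermal therapy alone, and at 9.44 to 47.0 FPKM after cryoablation plus anti-PD-1 and at 67.2 to 162.8 FPKM after cryoablation alone.

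Retnlg, the neutrophil resistin-like gene beside Retnla, had a higher mean with anti-PD-1 after cryo-thermal therapy, where its values overlapped, and a lower one after cryoablation. It measured 6.84, 3.87 and 0.479 FPKM after cryo-thermal plus anti-PD-1, against 2.09, 0.512 and 0.259 FPKM after cryo-thermal therapy alone. It measured 1.09, 1.13 and 0.768 FPKM after cryoablation plus anti-PD-1, against 4.25, 3.45 and 8.25 FPKM after cryoablation alone. Between cryo-thermal therapy and cryoablation without the antibody it fell (log2 fold change -1.73, SE 0.54, limma adjusted p = 0.0434).

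Of the signals that drive alternative activation, the ligands were scarce. Il4 was above 0 in 4 of the 18 tumours and at most 0.226 FPKM, and Il13 above 0 in 12 and at most 0.329 FPKM, the highest being replicate 3 of cryo-thermal plus anti-PD-1. Il4ra, the shared receptor chain, lay between 10.9 and 20.9 FPKM, Il13ra1, its partner for interleukin 13, between 4.97 and 13.7 FPKM, and Stat6 between 32.5 and 41.7 FPKM.

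Of 30 other genes listed for alternative activation, 29 were in the table and 21 passed the filter. Between cryo-thermal therapy and cryoablation without the antibody, 4 rose and 1 fell (11 at an unadjusted p under 0.05; median 0.26, all genes -0.01), beside 15% of all genes called. Those that rose were Ccl22, a chemokine for regulatory T cells (log2 fold change 1.23, limma adjusted p = 0.0126), Il2rg, the common cytokine receptor chain (0.94), Tgm2, a transglutaminase (0.79), and Msr1, a scavenger receptor (0.55). Cd163, a haemoglobin scavenger receptor, fell, with 0.372 ± 0.313 FPKM after cryo-thermal therapy and 3.16 ± 1.46 FPKM after cryoablation (-1.55, limma adjusted p = 0.0170). In the same comparison 12 of 14 genes of the interferon gamma response rose and 1, Cxcl10, fell (median 1.83), and 9 of 9 T cell markers rose (median 1.51). Their part in the count was not tested. The count of 5 was 2 without cryoablation replicate 1, cryo-thermal replicate 1 or cryo-thermal replicate 2, 3 without cryoablation replicate 3, and 8 without cryo-thermal replicate 3.

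With anti-PD-1 in both groups, 5 of the 21 rose between cryo-thermal therapy and cryoablation and 0 fell (9 at an unadjusted p under 0.05; median 0.20, all genes 0.01), beside 4.06% of all genes called. Pdcd1lg2, which encodes the PD-1 ligand PD-L2, measured 1.77, 5.31 and 7.21 FPKM after cryo-thermal plus anti-PD-1, against 1.02, 0.310 and 0.365 FPKM after cryoablation plus anti-PD-1 (log2 fold change 1.77, SE 0.36, limma adjusted p = 0.0225). Slc7a2, a transporter of arginine, rose by 1.22 (12.7 ± 5.65 against 4.58 ± 1.26 FPKM, adjusted p = 0.0336), and Il2rg by 0.97, Tgm2 by 0.68 and Cish, a cytokine signalling inhibitor, by 0.63. Ccl24, an eotaxin of alternatively activated macrophages, was just outside, with 2.01, 3.99 and 5.98 FPKM after cryo-thermal plus anti-PD-1, against 1.16, 1.49 and 0.909 FPKM after cryoablation plus anti-PD-1 (1.12, SE 0.30, limma adjusted p = 0.0504). The count of 5 was 0 without replicate 2 or replicate 3 of either group, 4 without the 3 tumours rich in skin markers and 0 in a fit of these groups alone. In the same comparison 10 of 14 interferon gamma response genes rose and 0 fell (median 1.86), and 6 of 9 T cell markers rose (median 1.29). Pdcd1lg2 is also known to respond to interferon gamma and Il2rg to be expressed by lymphocytes, and the part of either in the count was not tested.

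Against radiofrequency ablation, both with the antibody, cryo-thermal therapy had 1 of the 21 higher, Cish (log2 fold change 0.52, limma adjusted p = 0.0485). There 9 of the 21 had an unadjusted p under 0.05, and 1.31% of all genes were called. In the other 4 tested comparisons 0 of the 21 passed limma, with 5 at an unadjusted p under 0.05 when anti-PD-1 was added to radiofrequency ablation, 5 for cryo-thermal therapy against radiofrequency ablation, and 1 in each of the remaining pairs. In these 4 comparisons at most 0.0477% of all genes were called. When anti-PD-1 was added to radiofrequency ablation, 19 of the 21 changes were positive (median 0.26, all genes 0.01). Ccl22 did not pass, with 3.65 ± 0.388 against 1.19 ± 0.629 FPKM (1.12, SE 0.29, limma adjusted p = 0.176).

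**Figure D5:**
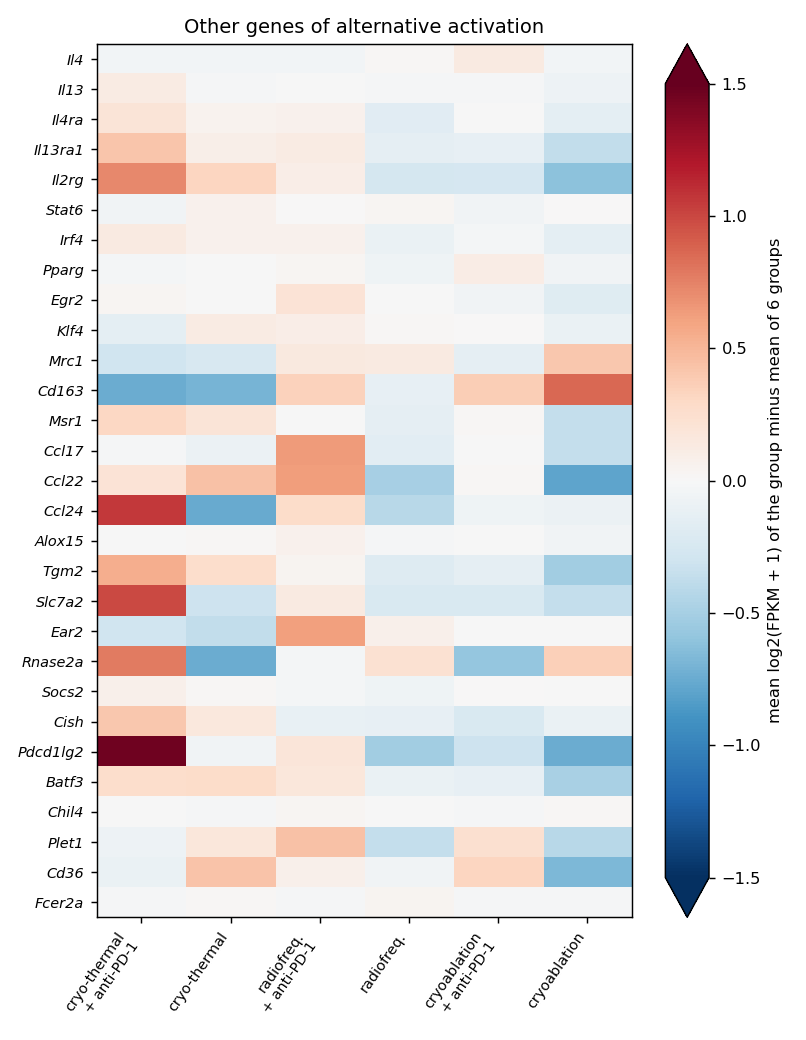
Heat map of 29 other genes of alternative activation (rows) in the 6 groups (columns); colour is the group mean of log2(FPKM + 1) minus the mean of the 6 groups, with n = 3 tumours in each. Pdcd1lg2, Ccl24 and Slc7a2 stand highest after cryo-thermal plus anti-PD-1, Cd163 after cryoablation, and Il4 and Stat6 show little colour in any group.

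Among 11 other C-type lectins of myeloid cells past the filter, Cd209f and Cd209g, relatives of Cd209a, lay opposite to Chil3 in the groups with the antibody. Between cryo-thermal therapy and cryoablation with the antibody, 2 of the 11 rose and 2 fell, beside 4.06% of all genes called. Of 14 resident macrophage markers, which include Cd209f, 12 had a negative change there (median -0.71). The changes of these lectins were not recomputed with tumours left out. Cd209f, a lectin of resident macrophages, measured 1.51, 0.501 and 0.0961 FPKM after cryo-thermal plus anti-PD-1, against 4.69, 5.16 and 6.79 FPKM after cryoablation plus anti-PD-1, and it fell (log2 fold change -2.02, SE 0.34, limma adjusted p = 0.0122). Cd209g fell as well (0.499 ± 0.337 against 1.60 ± 0.235 FPKM; -0.82, limma adjusted p = 0.0225). Both were also lower than after radiofrequency plus anti-PD-1, by log2 fold changes of -1.56 and -0.78 (limma adjusted p = 0.0449 and 0.0407). In that comparison 1.31% of all genes were called, and 13 of the 14 resident macrophage markers had a negative change (median -0.74). When anti-PD-1 was added to radiofrequency ablation Cd209g rose, with 1.79, 1.97 and 0.975 FPKM against 0.196, 0.111 and 0.263 FPKM (1.09, SE 0.17, limma adjusted p = 0.0370), and Cd209f had a change of 1.44 (limma adjusted p = 0.152). Clec7a, the beta-glucan receptor Dectin-1, and Clec4n, the receptor Dectin-2, rose between cryo-thermal and cryoablation with the antibody (1.74 and 1.01, limma adjusted p = 0.0318 and 0.0359). Clec4n also rose without it (0.99, limma adjusted p = 0.0173), as did Clec12a, an inhibitory receptor (1.23, limma adjusted p = 0.0125), while Clec7a had a change of 1.18 (limma adjusted p = 0.0615). The share of all genes called was 15% there, and 0.0477% when anti-PD-1 was added to radiofrequency ablation.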

How the data were processed

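Per the labels' protocols, TRIzol and silica columns gave DNase-treated RNA for VAHTS Universal V6 libraries. The authors deposited FPKM; the submitters' processing notes name HTSeq 0.11.2, while aligner, build, annotation and filters are not given in the sources used here. Total counts are not in the table, so depth is known only as a ratio between tumours, and no interval for counting error was computed. No column belonged to other samples, and no columns were identical.

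The log2(FPKM + 1) scale was used, which understates changes of low genes. Genes with a mean of at least 0.5 FPKM, 12587 in all, were fitted with limma 3.58.1 in R 4.3.3 (1 mean per group over 18 tumours, variance trend, 2-sided, Benjamini-Hochberg over the genes of a comparison, threshold 0.05). SE is limma's error of a log2 fold change. The fit was tested on simulated data. Likeness, sequences and figures used Python 3.11.15 with numpy 2.4.6, pandas 2.3.3, matplotlib 3.10.9 and scipy 1.17.1. Promoters and coordinates are RefSeq's, GRCm38.p6, matched by symbol; transcripts for sequence identity are GENCODE's. Of 191 list entries 188 were in the table, 2 of them by an older symbol.

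The genes and lists were chosen with earlier results of these data known. Named besides them were the 10 genes most like Chil3 and 3 for each other gene, leaving out predicted genes, clones and receptor segments, and up to 4 passing genes of a list per comparison. Where 5 passed, the fifth (Msr1, Cish) was named after its values were seen. Alternatives were the pseudocount, the filter, scaling, a replicate block, array weights, a fit without trend, a fit of the groups compared alone, leaving out each tumour, and leaving out the 3 tumours rich in skin markers. The count of alternative activation genes under these was added after seeing the data. Replicate numbers of the titles were not used to pair tumours across groups in the main fit.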

Additional observations from a re-analysis of the deposited data

Results flagged for a closer look

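The change of Chil3 with anti-PD-1 differed between ablations by 6.68 on the log2(FPKM + 1) scale, being 3.70 after cryo-thermal therapy (43.2 to 144.1 FPKM with the antibody, 3.43 to 13.4 FPKM without) and -2.99 after cryoablation (5.24 to 6.74 FPKM with, 19.2 to 129.4 FPKM without). It is listed because the values with the antibody all lay above those without it after one ablation and all below them after the other. That difference was used to choose the gene and was not tested.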

How the results depend on the processing

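With array weights, where variable tumours count less, the number of these genes past limma was 4 for cryo-thermal against cryoablation, 1 for cryo-thermal against radiofrequency, 2 for cryo-thermal plus anti-PD-1 against cryoablation plus anti-PD-1 and 1 for cryo-thermal plus anti-PD-1 against radiofrequency plus anti-PD-1, in place of 0 each. A fit of the 2 groups alone gave 1 (Mgl2) for cryo-thermal against cryoablation. Leaving out 1 tumour gave 0 to 1 for cryo-thermal against cryoablation and 0 to 1 for cryo-thermal against radiofrequency. The cause was not tested. Directions turned for changes that had not passed. With array weights Chil1 was 0.11 for radiofrequency plus anti-PD-1 against radiofrequency and Clec10a -0.073 for radiofrequency against cryoablation, and without the 3 tumours rich in skin markers, which leaves cryoablation plus anti-PD-1 with 1 tumour assumed to vary like the other groups, Chil1 was -0.036 for cryo-thermal against cryoablation with the antibody. Leaving out 1 tumour gave, for radiofrequency plus anti-PD-1 against radiofrequency, -0.65 to 0.40 for Chil3, -0.31 to 0.28 for Chil1 and -0.16 to 0.38 for Retnla. It gave -0.44 to 0.57 for Mgl2 in cryo-thermal against radiofrequency and -0.12 to 0.31 for Clec10a in radiofrequency against cryoablation. With the antibody it gave -0.11 to 1.14 for Chil1 and -0.13 to 0.80 for Mgl2 in cryo-thermal against cryoablation, -0.27 to 0.24 for Retnla in cryo-thermal against radiofrequency, and -0.084 to 0.43 for Clec10a in radiofrequency against cryoablation. The number of other alternative activation genes past limma was 13 and 12 with array weights, 3 and 0 in a fit of the groups alone, and 5 and 2 without a filter, for cryo-thermal against cryoablation without and with the antibody.

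Same-numbered tumours of different groups correlated at -0.467 to 0.591 (13 of 45 pairs over 0.1), and 8 of 18 tumours correlated best with their own number. The median was -0.001 for same-numbered and -0.007 for differently numbered tumours. This check cannot exclude a pairing by number, and the main fit used none. With the replicate block 0 of these genes passed in each tested comparison, as without it, Chil3 kept a change of -0.28 (adjusted p = 0.903) for radiofrequency plus anti-PD-1 against radiofrequency, and the 2 counts of alternative activation genes were 7 and 5. Scaling moved the median of all genes by at most 0.03. With 3 tumours a group and no fragment counts, small changes in Chil1 and Cd209a could not be detected.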
